A study of Mus musculus with 24 samples.

Results

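Megakaryocyte progenitors (MkP) of mice carrying the Jak2 mutation V617F (VF) were compared with MkP of mice carrying a Jak2 exon 12 allele (E12). The comparison used 6 of the 24 libraries of the series, the 3 VF libraries with replicate numbers 1, 2 and 3 and the 3 E12 libraries with numbers 2, 4 and 5, chosen by population and genotype. The VF genotype was labelled with Vav1.Cre and the E12 genotype with Scl.Cre, so the Cre driver differed together with the Jak2 allele and the effects of the 2 cannot be told apart. All mice were of the strain C57BL/6N and received tamoxifen on 5 days. Bone marrow cells were sorted 12 weeks later, RNA was extracted with the PicoPure kit and libraries were made by Smart-seq2, a full-length cDNA method. No unmutated group entered the comparison, so each difference is one between 2 mutant lines. Ages, sexes, pooling of animals and whether a replicate was a separate animal were not given, so p-values measure the spread between these libraries, which may be technical. The labels place this work in a study of how iron bears on the type of myeloproliferative neoplasm.

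Jak2 is the kinase that carries the signals of the erythropoietin receptor Epor and other cytokine receptors to STAT transcription factors. Mutations that activate it cause myeloproliferative neoplasms, and V617F is found in several forms of these diseases, while exon 12 mutations are found mostly in polycythaemia vera, in which red cells are in excess. MkP give rise to megakaryocytes, which release platelets, and arise near the branch at which erythroid cells form.

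The 6 libraries held 20354022 to 28601574 counts, of which VF held 20354022 to 23023520 and E12 20751902 to 28601574. Between 14550 and 14997 genes had reads in a library, and the scaling factors lay between 0.9788 and 1.0161. Levels are counts scaled to the size of the library (CPM). All 12 defining MkP markers were measured, among them Itga2b (CD41), Gp9 and Pf4, and their summed level was 6886 to 9329.5 CPM in VF and 6826 to 7957 CPM in E12. On a principal component analysis of 500 variable genes the first component (33.7% of the variance) put all VF libraries between -28.84 and -11.78 and all E12 libraries between 6.76 and 33.7. The second (21.1%) set E12 2 apart, at -33.49 against -3.52 to 19.41 for the other libraries.

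Sex-linked RNA followed the groups in large part and bears on every result that follows. Xist, the RNA of the inactive X chromosome, was at 1.95 CPM in VF 1, 598 in VF 2 and 1.33 in VF 3, and at 869 in E12 2, 2004 in E12 4 and 2061 in E12 5 (CPM without scaling). Ddx3y, a Y-linked helicase gene, was at 47.5, 52.2 and 54.2 CPM in VF 1, 2 and 3, at 22.4 in E12 2, at 0.0964 in E12 4 and at 0 in E12 5. VF 2 and E12 2 thus held reads of both kinds. In LTHSC, the long-term haematopoietic stem cells of the same lines, Ddx3y was found in all 6 VF and E12 libraries (8.22 to 109.5 CPM), and Xist was at 533 CPM in VF 2 and at most 9.59 CPM in the other 5. The comparison in MkP was therefore also fitted with Xist CPM as a covariate, which leaves 3 residual degrees of freedom, and without VF 2 and E12 2, both chosen after seeing the data. Without VF 2 and E12 2, sex-linked RNA and line separate completely and cannot be told apart, so values from that fit show only what these 2 libraries add and say nothing on sex-linked RNA. Neither fit was made for the comparison with LTHSC. Outside the comparison, the MkP libraries labelled KI 5 and KI 6, of a knock-in line used below for reference, had Echdc2 at 5.70 and 1.74 CPM, near the VF libraries, while every other library labelled KI had at least 123 CPM. Sva, described under the other observations, had reads in 9 of 9 VF libraries and in 0 of 9 libraries labelled KI, KI 5 and KI 6 included. Whether KI 5 and KI 6 carry the genotype on their labels was not tested, and each KI value in MkP is to be read with that doubt.

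**Figure D1:**
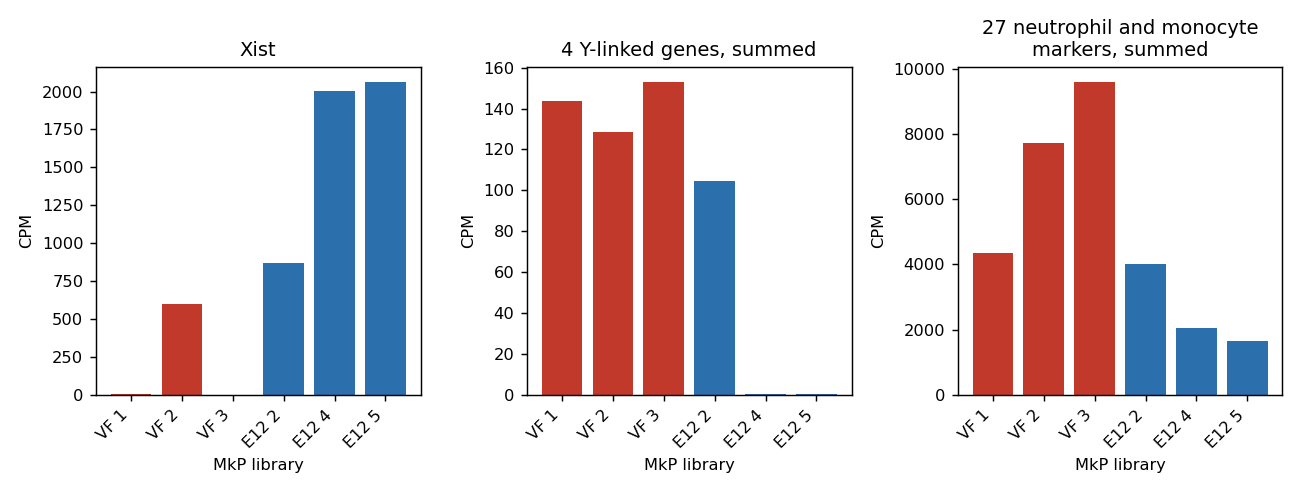
Level (CPM, linear axis from 0) of Xist, of 4 Y-linked genes summed and of 27 neutrophil and monocyte markers summed, in each MkP library (VF red, E12 blue). Xist is high in E12 4 and E12 5 and near 0 in VF 1 and VF 3, Y-linked reads show the reverse, VF 2 and E12 2 hold both, and the marker sum of E12 2 (4012 CPM) lies close to that of VF 1 (4356 CPM).

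Few genes differed between the lines beyond the spread of the libraries. Of 13097 genes tested, 12 passed an adjusted p of 0.05 in the quasi-likelihood test of edgeR, adjusted by the Benjamini-Hochberg method (0.0916% of the genes), 7 higher in VF (0.0534%) and 5 lower (0.0382%). Higher in VF were Socs2, Ms4a3, Igsf6, Ly6c1, Rgcc, Prom1 and the predicted gene Gm6093, and lower were Echdc2, Esr1, Tfrc, Tfpi and Serpinb10. At an unadjusted p under 0.05 there were 1127 genes (8.61%), and the 2 groups of 3 libraries did not overlap for 1917 genes (14.6%), 949 higher in VF (7.25%) and 968 lower (7.39%). The median log2 fold change of all genes was 0.0047.

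The 12 calls did not hold equally well. Echdc2 was called in 15 of 16 other analyses, Esr1 and Tfrc in 13, Socs2 and Tfpi in 12, Prom1 in 9, Serpinb10 in 8, Rgcc, Ms4a3, Igsf6 and Gm6093 in 7 and Ly6c1 in 6. No call changed direction in any of the 16. Leaving out VF 2 and E12 2 gave 38 calls, among them all 6 sex-linked genes listed (4 higher and 2 lower in VF), and lost Ms4a3, Prom1 and Gm6093. With Xist as a covariate 3 genes were called, of which Echdc2 was the one shared with the 12. DESeq2 called 104 genes, including all 12. Of the members of the gene lists described below, it called Prtn3, Fcgr3, Ly6c2, Elane, Cdkn1a, Dnajb1, Hsp90aa1, Nupr1, Ifi27 and Ddit4 higher and Apoe, Hbb-bt, Hbb-b2, Dusp1 and Ccnb1 lower beside those of edgeR. Leaving out E12 2 raised the count to 41, among them 4 Y-linked genes higher in VF, and kept all 12. Leaving out E12 4 lowered the count to 4. With the 3 uneven libraries labelled KI added to the fit, edgeR called 0 genes, with 167 at an unadjusted p under 0.05.

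**Figure D2:**
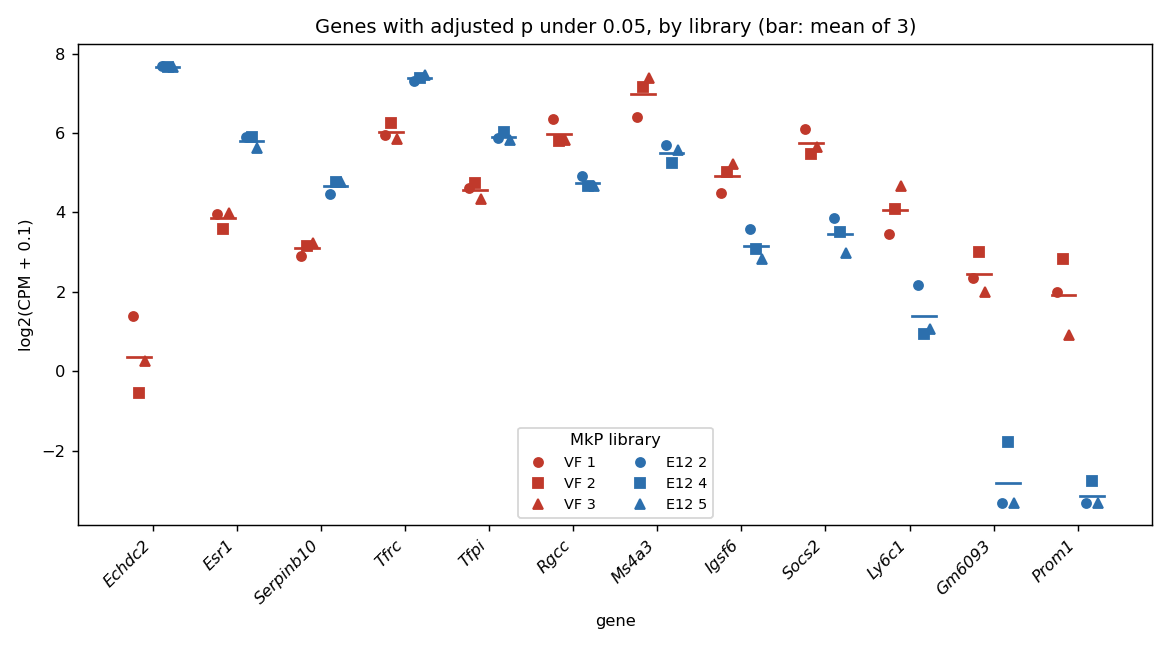
Level of the 12 called genes as log2(CPM + 0.1) in each library (VF red, E12 blue, symbols mark the library, bars the mean of 3). In every gene the 3 VF libraries lie on one side of the 3 E12 libraries; Echdc2 shows the widest gap among the genes lower in VF.

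**Figure D3:**
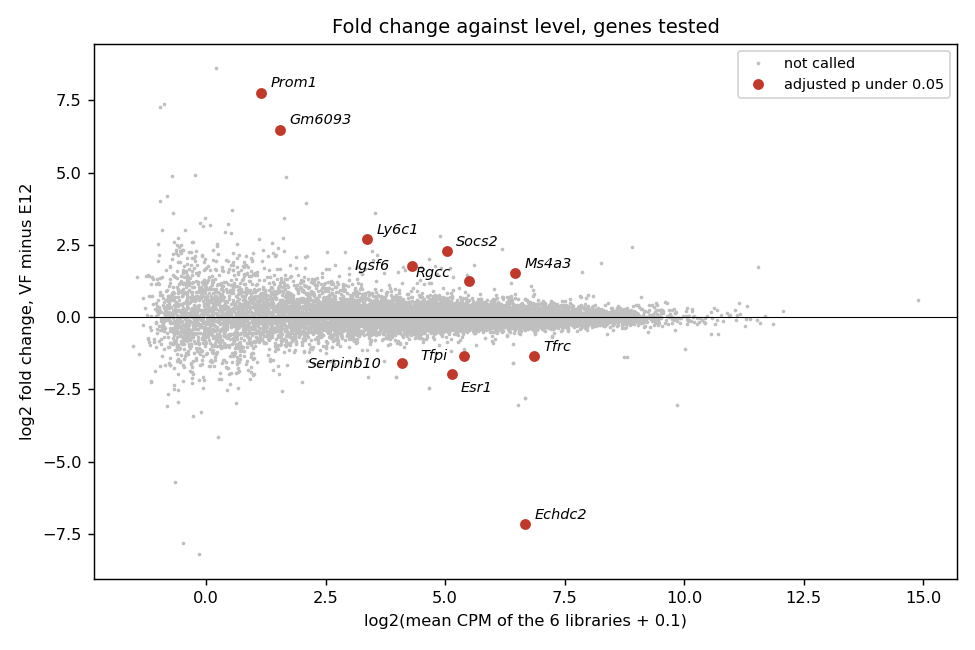
Log2 fold change (VF minus E12) against log2(mean CPM + 0.1) of the 13097 genes tested, with the 12 called genes in red. Prom1 and Gm6093 are called at low levels, while Tfrc and Echdc2 are called at mean levels above 100 CPM in E12.

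Jak2 itself was read first, as the gene the mutations concern (chromosome 19, 29251803 to 29313095, GRCm38). The labels do not say whether the VF and E12 mutations lie at this locus or in an inserted copy. It was at 95.6, 79.4 and 74.5 CPM in VF 1, 2 and 3 and at 54.1, 65.8 and 63.6 CPM in E12 2, 4 and 5. All VF libraries lay above all E12 libraries (log2 fold change 0.44, SE 0.14), but the difference did not pass (adjusted p = 0.471, edgeR). Exact permutation of the log2 CPM values gave a 2-sided p = 0.1, the smallest that 3 against 3 libraries allow. Which allele the reads came from is not visible in a count table, and the genotype labels could be checked no further.

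Socs2, a STAT5 target whose protein damps cytokine receptor signalling, was the one gene of the Jak-STAT pathway that passed. It was at 68.6, 44.0 and 49.9 CPM in VF and at 14.5, 11.3 and 7.78 CPM in E12. The lowest VF library thus stood above the highest E12 library, with a 4.85-fold difference (log2 fold change 2.28, SE 0.25, adjusted p = 0.00622, edgeR). In the 3 MkP libraries labelled KI, a Scl.Cre line labelled as a mouse Jak2 knock-in whose mutation state is not given, Socs2 was at 37.7 (KI 4), 34.0 (KI 5) and 53.6 CPM (KI 6) when all 24 libraries were scaled together. On that scale VF MkP had 64.1, 41.2 and 46.4 CPM and E12 MkP 13.7, 10.6 and 7.35 CPM, so KI 4, the one MkP library labelled KI with Echdc2 at the level of the other KI libraries, lay between E12 and VF. Leaving out E12 4 (log2 2.29, adjusted p = 0.0917) or using Xist as a covariate (log2 1.46, adjusted p = 0.795) ended the call.

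None of the other pathway genes passed in edgeR, and DESeq2 also called Cdkn1a higher. Among 30 measured JAK-STAT targets and feedback inhibitors Socs2 was called higher, none was called lower, and the median log2 fold change was -0.01, against 0.0047 for all genes. Cish, another feedback inhibitor and STAT5 target, was at 28.6, 25.4 and 17 CPM in VF and at 24.2, 22.4 and 8.93 CPM in E12, and the groups overlapped (log2 0.36, SE 0.34, adjusted p = 0.796). Pim1, a kinase gene induced by STAT5, was at 5.23, 6.75 and 6.98 CPM in VF and at 9.01, 10.7 and 9.21 CPM in E12 (log2 -0.61, SE 0.28, adjusted p = 0.577). Cdkn1a, which codes for the cell cycle inhibitor p21, had the next smallest p of that list, with 16.4, 17.8 and 23.9 CPM in VF and 8.92, 10.1 and 7.78 CPM in E12 (log2 1.12, SE 0.24, adjusted p = 0.187). Its groups did not overlap, and its adjusted p in DESeq2 was 0.00675. None of 11 JAK and STAT genes (median -0.02) and none of 23 measured cytokine receptors (median 0.09) passed. Epor was at 46.4, 55.3 and 49.3 CPM in VF and at 76.5, 72.0 and 66.6 CPM in E12, without overlap, and did not pass (log2 -0.51, SE 0.13, adjusted p = 0.345). Kit, the receptor of stem cell factor, overlapped (525 ± 18.8 CPM in VF against 476 ± 86.2 CPM in E12, SD, n = 3).

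Tfrc, the transferrin receptor through which cells take up iron, was lower in VF. It was at 62.1, 76.3 and 57.4 CPM in VF and at 159, 167 and 177 CPM in E12. The gap between the groups was wider than the range within either, and E12 stood 2.57-fold higher (log2 fold change -1.36, SE 0.13, adjusted p = 0.00221, edgeR). On the scale of all 24 libraries the libraries labelled KI did not form one level in MkP: KI 4 had 138 CPM, near the E12 libraries (150 to 167), and KI 5 and KI 6 had 39.2 and 47.8 CPM, below the VF libraries (53.4 to 71.4). KI 5 and KI 6 had scaling factors of 0.5593 and 0.5136 against 1.1219 for KI 4, and are the reason the KI line was left out of the fit. With Xist as a covariate the call was lost (log2 -1.07, adjusted p = 0.622).

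Other genes of iron handling showed no such difference. Of 34 measured genes for iron uptake, storage and export Tfrc was the one that passed, and the median was 0.04. Steap3, the endosomal reductase that acts after transferrin uptake, was at 39.7, 57.7 and 45.7 CPM in VF and at 65.5, 67.2 and 54.4 CPM in E12, with overlap (log2 -0.39, adjusted p = 0.572). Slc11a2, which moves iron out of the endosome, overlapped as well (41.7, 59.0 and 42.8 against 66.3, 51.8 and 60.3 CPM). The ferritin heavy chain gene Fth1 was at 893, 878 and 1129 CPM in VF and at 862, 772 and 771 CPM in E12, without overlap (log2 0.27, SE 0.12, adjusted p = 0.575). The RNA-binding regulators of Tfrc and ferritin, Aco1 (log2 0.13, adjusted p = 0.883) and Ireb2 (log2 0.06, adjusted p = 0.936), overlapped between the groups. Slc40a1, the iron exporter ferroportin, ranged from 2.83 to 16.3 CPM in VF and from 2.40 to 9.41 in E12. None of 23 measured iron-sulfur cluster genes (median 0.02) and none of 27 heme genes (median -0.04) passed. Among the heme genes, the mitochondrial glycine carrier Slc25a38 had 35.2, 46.7 and 31.4 CPM in VF and 26.5, 23.1 and 23.7 CPM in E12 (log2 0.63, adjusted p = 0.431).

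Echdc2 showed the largest difference among the called genes lower in VF. Its product carries an enoyl-CoA hydratase domain. It was at 2.53, 0.587 and 1.09 CPM in VF and at 206, 202 and 203 CPM in E12. E12 was 143-fold higher (log2 fold change -7.16, SE 0.36, adjusted p = 4.13e-05, edgeR). Echdc2 (chromosome 4, 108165436 to 108179308) lies on another chromosome than the mouse Jak2 gene, and where the VF and E12 alleles lie is not given. The 5 further genes listed as differing between C57BL/6 substrains, Nnt, Wdfy1, Cyfip2, Ide and Entpd4, had log2 fold changes between -0.03 and 0.13. On the scale of all 24 libraries Echdc2 was at 0 to 5.16 CPM in all 9 VF libraries of 3 populations and at 188 to 384 CPM in all 6 E12 libraries. In the KI line it was at 217, 194 and 255 CPM in LTHSC and at 204, 140 and 123 CPM in preMegE, the progenitors of megakaryocytes and erythroid cells. In MkP, KI 4 had 179 CPM while the libraries labelled KI 5 and KI 6 had 5.70 and 1.74 CPM. The low level thus accompanied the VF label in every population and 2 of the 9 libraries labelled KI. With Xist as a covariate Echdc2 was still called (log2 -7.49, adjusted p = 0.00133).

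Esr1, the gene of estrogen receptor alpha, was lower in VF. It was at 15.4, 11.9 and 15.8 CPM in VF and at 59.4, 60.1 and 48.8 CPM in E12. Every E12 library stood above every VF library, with E12 3.89-fold higher (log2 fold change -1.96, SE 0.18, adjusted p = 0.00186, edgeR). Since sex-linked RNA also differed between the groups, the value with Xist as a covariate is given here: log2 -2.28, adjusted p = 0.068. E12 2, with reads of both kinds, had 59.4 CPM, between E12 5 and E12 4, and VF 2, also with both, had the lowest VF value. In LTHSC Esr1 was at 47.9, 38.5 and 72.0 CPM in VF and at 113.5, 67.5 and 112 CPM in E12 2, 4 and 11 on the scale of all libraries.

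The sequence upstream of the called genes was searched for the letters of the sites that STAT and GATA factors are known to bind, because Jak2 acts through STATs and Gata1 is the leading factor of megakaryocytes. RefSeq windows (GRCm38.p6) of 250 bases before a start were found for 11 of the 12 genes, 16 windows in all, and none for Socs2. The palindrome TTCNNNGAA was in 1 of the 16 windows, against 7.02% of 32851 windows of the same length. AGATAA or TGATAA, read on both strands, was in 3 of the 16, against 16.6% of all windows. The STAT letters were found at the inner of the 2 Esr1 starts (chr10:4709908-4710157, plus strand), and the GATA letters at Serpinb10, Tfpi and Gm6093. The Esr1 window is shown with its match in capitals because it is the one with STAT letters, and the Tfrc window (chr16:32608646-32608895, plus strand) because Tfrc is the iron gene that passed. The capitals describe letters, not a bound site, and the Tfrc window holds no match.
Esr1: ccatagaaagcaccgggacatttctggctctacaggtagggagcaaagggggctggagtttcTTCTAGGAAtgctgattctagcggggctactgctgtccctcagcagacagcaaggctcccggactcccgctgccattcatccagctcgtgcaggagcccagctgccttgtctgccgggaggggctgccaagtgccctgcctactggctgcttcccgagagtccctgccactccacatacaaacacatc
Tfrc: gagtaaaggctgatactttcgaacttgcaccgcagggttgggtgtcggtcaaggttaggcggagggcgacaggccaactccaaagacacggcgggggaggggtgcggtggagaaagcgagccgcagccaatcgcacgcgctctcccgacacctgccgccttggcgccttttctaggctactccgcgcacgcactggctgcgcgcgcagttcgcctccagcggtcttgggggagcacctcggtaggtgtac

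Tfpi, the inhibitor of the tissue factor pathway of blood clotting, was lower in VF, with 24.2, 26.4 and 20.1 CPM against 58.8, 65.5 and 56.1 CPM in E12. The lowest E12 library stood above the highest VF library (2.55-fold, log2 fold change -1.35, SE 0.16, adjusted p = 0.00948, edgeR). Leaving out E12 4 ended that call. Serpinb10, an intracellular serine protease inhibitor, was also lower, with 7.41, 8.81 and 9.21 CPM in VF and 21.9, 27.1 and 27.3 CPM in E12 (3.00-fold, log2 -1.58, SE 0.21, adjusted p = 0.0222). Its call was ended by leaving out any one of VF 1, VF 2, VF 3, E12 4 and E12 5. With Xist as a covariate neither passed (adjusted p = 0.653 for Tfpi and 0.883 for Serpinb10).

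No gene of the megakaryocyte programme passed in the main edgeR fit, and without VF 1 edgeR called 1 gene of alpha-granule cargo lower. None of the 12 defining markers passed (median log2 fold change -0.05), nor did any of 24 transcription factors of the lineage (0.03), 32 platelet receptors and integrins (-0.04), 20 genes of alpha-granule cargo (0.25), 31 genes of granule formation and secretion (0.00) or 46 genes of cytoskeleton and signalling (0.04). In the alpha-granule list 6 of 20 genes had an unadjusted p under 0.05 in the higher direction, against 4.7% of all genes, and 2 in the lower, against 3.9%. Pf4, platelet factor 4, was at 3328, 1964 and 2602 CPM in VF and at 1836, 2054 and 1767 CPM in E12, with VF 2 inside the E12 range (log2 0.48, SE 0.17, adjusted p = 0.504). Vwf, the adhesive protein of the alpha granule, was at 627, 384 and 348 CPM in VF and at 337, 434 and 367 CPM in E12 (adjusted p = 0.747). Itga2b averaged 1598 ± 135 against 1723 ± 287 CPM and Gp9 109.7 ± 29.3 against 121 ± 23.7 CPM. The factors Fli1 (log2 0.00), Nfe2 (log2 0.06) and Gata1 (log2 -0.25, SE 0.10, adjusted p = 0.565) did not pass either. Apoe, a lipid carrier listed with the granule cargo, had the smallest p of these lists, with 408, 836 and 728 CPM in VF and 1363, 1366 and 1533 CPM in E12, no overlap and an adjusted p of 0.163 (log2 -1.11, SE 0.22). DESeq2 called Apoe lower (adjusted p = 4.94e-06).

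Globin RNA was lower in every VF library than in every E12 library but did not pass in the main edgeR fit. DESeq2 called Hbb-b2 and Hbb-bt lower (adjusted p = 0.00055 each). Hba-a1, an alpha-globin gene, was at 14.5, 17.6 and 44.9 CPM in VF and at 352, 121 and 64.5 CPM in E12. The groups did not overlap, yet the E12 libraries spanned more than 5-fold with E12 2 the highest (log2 fold change -2.80, SE 0.87, adjusted p = 0.544). All 6 measured globin genes had an unadjusted p under 0.05 and lay lower in VF, against 3.9% of all genes, with a median of -2.45. The alpha genes Hba-a1 and Hba-a2 are near copies with almost the same values, as are the beta genes Hbb-b1 and Hbb-bs on one hand and Hbb-b2 and Hbb-bt on the other, so the 6 stand for 3 sets of reads. Without VF 2 and E12 2 the median was -1.36, and with Xist as a covariate it was -4.46 with Hbb-bs and Hbb-b1 called lower (adjusted p = 0.0129). In bulk RNA, here and for the marker lists below, a different share of cells of a type and a different amount of its RNA per cell cannot be told apart.

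The list of erythroid genes other than globin did not share this pattern as a whole. None of 35 measured members passed, and the median was -0.03, with single values from -2.57 to 1.14. At an unadjusted p under 0.05, 3 lay lower in VF, against 3.9% of all genes, and 1 higher, against 4.7%. Klf1, the erythroid transcription factor, was at 53.3, 116 and 81.5 CPM in VF and at 88.0, 60.0 and 75.9 CPM in E12. Alas2, the erythroid enzyme of heme synthesis, was at 2.18, 1.71 and 1.54 CPM in VF and at 8.61, 2.73 and 1.19 CPM in E12, where the highest value again was that of E12 2 (log2 -1.20, adjusted p = 0.656). Car2, a carbonic anhydrase gene of red cells (1168, 1121 and 1059 against 1276, 938 and 1010.3 CPM), overlapped as well.

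Of 27 measured markers of neutrophils and monocytes, Ms4a3 alone passed in the main edgeR fit, and the log2 fold changes of the list ran from -2.65 to 2.42. Ms4a3, a marker of granulocyte-monocyte progenitors, was at 84.6, 144 and 166 CPM in VF and at 51.3, 38.1 and 47.6 CPM in E12. All VF libraries exceeded all E12 libraries (2.88-fold, log2 fold change 1.53, SE 0.22, adjusted p = 0.0338, edgeR). The call of Ms4a3 was lost without VF 2, VF 3, E12 4 or E12 5. Of the 27 markers 11 had an unadjusted p under 0.05 in the higher direction, against 4.7% of all genes, with 1 in the lower. The median was 0.70, and with Xist as a covariate it was -0.25, the opposite sign. DESeq2 called 5 of the 27 higher. The summed level of the list was 4356, 7735 and 9583 CPM in VF and 4012, 2036 and 1643 CPM in E12, so VF 1 and E12 2 lay close together. None of the 27 was at 0 in all libraries of a group.

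In single granule genes VF 1 was likewise the lowest VF library and E12 2 the highest E12 library. Mpo, the myeloperoxidase of neutrophil granules, was at 2628, 5116 and 6152 CPM in VF and at 2347, 1009 and 797 CPM in E12 (log2 1.74, SE 0.54, adjusted p = 0.526). Elane, neutrophil elastase, was at 514, 787 and 1114 CPM in VF and at 250, 122 and 80.5 CPM in E12 (log2 2.42, SE 0.53, adjusted p = 0.394). Prtn3, proteinase 3, was at 216, 349 and 476 CPM in VF and at 138, 117 and 94.4 CPM in E12 (log2 1.58, SE 0.26, adjusted p = 0.102). Each of these 3 granule genes was without overlap, and none passed in the main edgeR fit. DESeq2 called Prtn3 (adjusted p = 8.16e-10) and Elane (0.00736) higher. Without VF 2 and E12 2, Ly6c2, Ctsg and Elane were called higher (adjusted p between 0.01 and 0.0229) and Ms4a3 was not (0.0701).

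Igsf6 and Ly6c1 were called as well. Igsf6, an immunoglobulin superfamily gene of myeloid cells, was at 22.2, 32.4 and 37.3 CPM in VF and at 11.9, 8.34 and 6.97 CPM in E12 (3.38-fold, log2 1.76, SE 0.27, adjusted p = 0.046). Ly6c1, which codes for a small surface protein, was at 10.8, 17 and 25.4 CPM in VF and at 4.37, 1.82 and 2.00 CPM in E12 (6.50-fold, log2 2.7, SE 0.42, adjusted p = 0.0498). As in the marker list, VF 1 was the lowest VF library and E12 2 the highest E12 library in both. Ly6c1 and its near copy Ly6c2 (97.4, 118 and 151 against 34.8, 24.7 and 11.3 CPM, log2 2.37, adjusted p = 0.102) can share reads. The part of the neutrophil and monocyte RNA in these calls was not tested. Both calls were ended by leaving out any one of VF 2, VF 3, E12 4 and E12 5.

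Rgcc, a regulator of cell cycle progression, was higher in VF, with 81.1, 55.2 and 56.0 CPM against 30.1, 25.1 and 25.1 CPM in E12 (2.40-fold, log2 fold change 1.26, SE 0.18, adjusted p = 0.0338, edgeR). The groups did not overlap, and leaving out any one of VF 1, VF 2, VF 3, E12 4 and E12 5 ended the call.

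Prom1 and Gm6093 were close to absent from E12 MkP. Neither met the rule for named genes, Prom1 because of its low level and Gm6093 as a predicted gene, and they are named because they complete the 12. Prom1, the gene of the surface protein CD133, had 89, 144 and 39 reads in VF and 0, 1 and 0 in E12. With a single read in E12 the ratio of 299.6 has a counting interval of 53.3 to 11878 (95%, exact binomial, counting error only), and edgeR gave an adjusted p of 0.0222. Gm6093 had 115, 163 and 85 reads in VF and 0, 4 and 0 in E12, a ratio of 99.97 with a counting interval of 38.7 to 369 (adjusted p = 0.0338). Neither was absent from the E12 line as a whole: Prom1 had reads in 4 of 6 E12 libraries and Gm6093 in 2 of 6. Both calls were lost without VF 2 and E12 2 together, that of Prom1 also without VF 2, E12 4 or E12 5 alone, and that of Gm6093 without VF 1, VF 2, VF 3 or E12 5 alone.

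Interferon response genes depended on 1 library. None of 62 measured members passed in the main edgeR fit of the 6 libraries (median -0.09). DESeq2 called Ifi27 higher in VF (log2 0.59, adjusted p = 0.0099). Iigp1, an interferon-inducible GTPase, was at 17.2, 17 and 15.6 CPM in VF and at 5.21, 55.9 and 57.2 CPM in E12 2, 4 and 5. Irgm2, a related GTPase, was at 43.2, 48.9 and 40.8 CPM in VF and at 24, 115 and 110 CPM in E12. E12 2 thus lay below all VF libraries in both genes, while E12 4 and E12 5 lay above them. Without E12 2, 5 members were called lower in VF: Iigp1 (log2 -1.77, adjusted p = 0.0017), Irgm2 (-1.34, 0.00243), Igtp (-1.01, 0.0308), Irgm1 (-0.89, 0.0363) and Irf1, a transcription factor of the response (-1.03, 0.047). In that fit 4 Y-linked genes were called higher in VF, so Y-linked RNA and line cannot be told apart there. With Xist as a covariate the median of the interferon list was 0.53.

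Heat shock genes lay mostly higher in VF, and none passed in the main edgeR fit. With no filter, and with at least 1 CPM in all 3 libraries of a group, edgeR called 1 of them higher. DESeq2 called 2 higher. Of 17 measured heat shock genes 8 had an unadjusted p under 0.05, all higher in VF, against 4.7% of all genes, and the median was 0.48. Dnajb1, a co-chaperone, was at 287, 320 and 353 CPM in VF and at 191, 158 and 222 CPM in E12, without overlap (log2 0.75, SE 0.14, adjusted p = 0.102). Hsp90aa1, a cytosolic chaperone, was at 798, 999 and 1004 CPM in VF and at 672, 638 and 698 CPM in E12 (log2 0.48, SE 0.11, adjusted p = 0.274). None of 33 genes of the unfolded protein and integrated stress response passed in the main edgeR fit (median -0.01, with 5 at an unadjusted p under 0.05 higher and 3 lower). Among them Nupr1 was at 60.9, 41.2 and 39.2 CPM in VF and 17.3, 23.5 and 31.9 CPM in E12 (log2 0.95, adjusted p = 0.339). None of 24 p53 targets (median 0.26) and none of 30 immediate-early genes (median 0.08) passed in that fit. DESeq2 called Nupr1 and the p53 target Cdkn1a higher and the immediate-early gene Dusp1 lower. Egr1, a first-wave gene of cytokine and handling responses, overlapped (log2 0.03).

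Cell cycle, ribosome and energy genes also gave no call in the main edgeR fit. Of 53 genes of mitosis 7 had an unadjusted p under 0.05, all lower in VF, against 3.9% of all genes, with a median of -0.11. Ccnb1, cyclin B1, was at 148, 131 and 102 CPM in VF and at 182, 174 and 200 CPM in E12, without overlap (log2 -0.55, SE 0.14, adjusted p = 0.339). DESeq2 called Ccnb1 lower (adjusted p = 0.0414) and Ddit4, of the glycolysis and hypoxia list, higher (adjusted p = 0.0481). Mki67 averaged 434 ± 12.7 against 459 ± 21.8 CPM. The medians of the other lists were -0.08 for 52 replication genes, -0.06 for 47 histone genes, 0.27 for 79 cytosolic ribosomal proteins, 0.12 for 74 nuclear genes of the respiratory chain, 0.02 for 37 genes of glycolysis and hypoxia, 0.09 for 25 genes of cholesterol synthesis, -0.03 for 19 NF-kB genes and 0.20 for 37 stem cell genes. In the ribosomal list VF 3 stood apart, with a summed level of 29613 CPM against 17072 to 21171 in the other 5 libraries. The markers of further cell types gave no call: 10 macrophage (median 0.78), 13 lymphoid (-0.24), 14 mast, basophil and eosinophil (-0.01) and 7 stromal and endothelial genes (0.35). The macrophage list summed to 18.1 to 62.6 CPM in VF and 26.2 to 44.9 in E12.

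**Figure D4:**
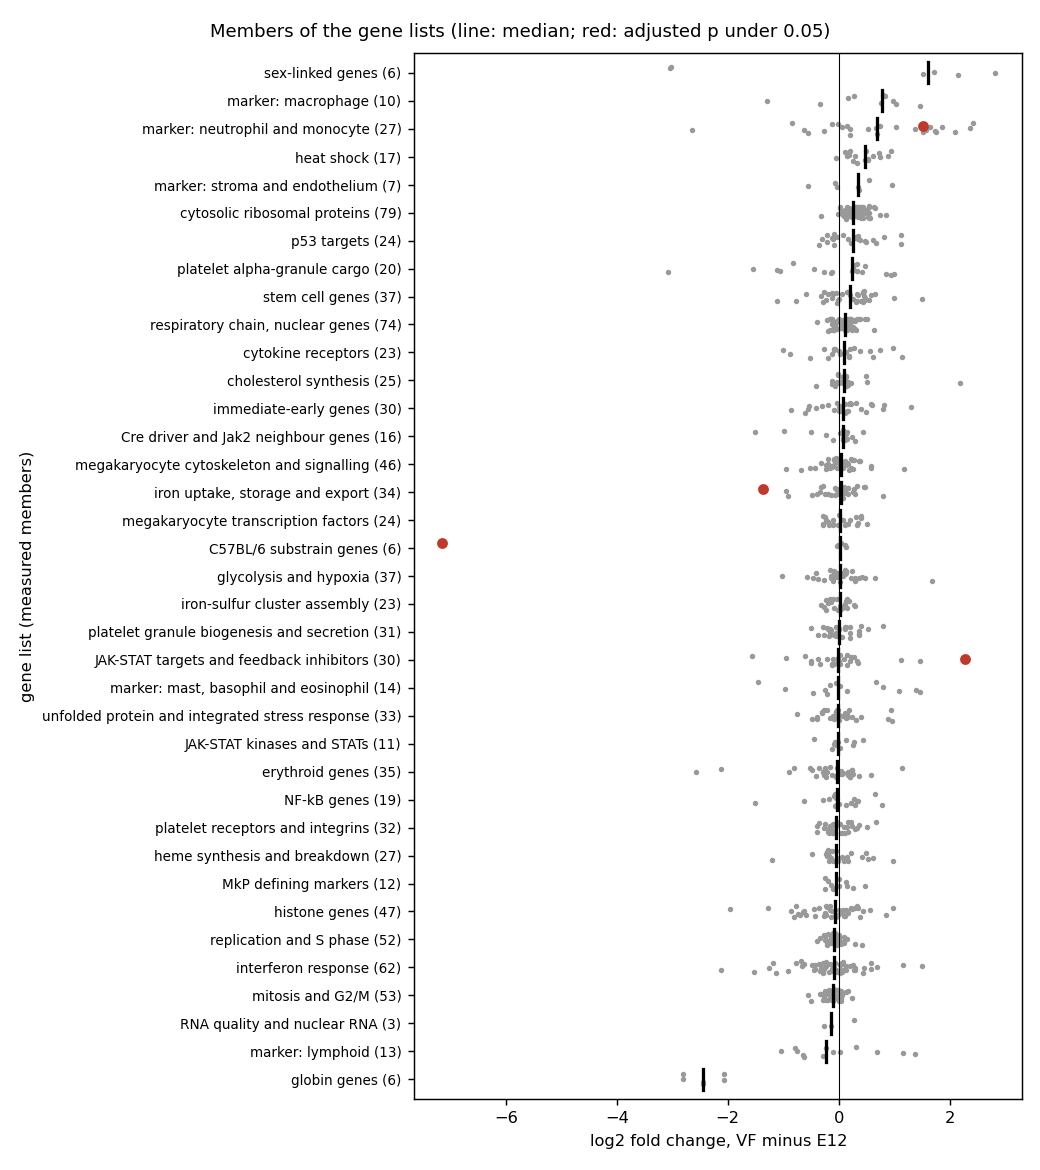
Log2 fold change (VF minus E12) of the measured members of 37 gene lists, with the number of members in brackets, the median as a black line and called genes in red. The called members are Echdc2, Tfrc, Socs2 and Ms4a3, each away from the median of its list, and the globin list is the one whose members all lie below -2.

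Genes just outside the threshold are given as values. The smallest adjusted p values above 0.05 among genes of at least 10 CPM were those of Arrdc3, an arrestin-domain gene, at 33.5, 24.1 and 21.7 CPM in VF and 59.4, 59.5 and 53 CPM in E12 (log2 -1.12, SE 0.18, adjusted p = 0.0587), and Idh1, cytosolic isocitrate dehydrogenase, at 87.0, 88.8 and 76.7 CPM in VF and 52.2, 50.8 and 46.6 CPM in E12 (log2 0.75, SE 0.13, adjusted p = 0.0801). Podxl, a sialomucin of stem cells and platelets, was at 52.8, 25.4 and 25.9 CPM in VF and at 11.3, 11.9 and 8.13 CPM in E12 (log2 1.74, adjusted p = 0.0818). Atp8b4, a lipid flippase gene, had 30.3, 52.7 and 55.4 CPM in VF and 20.5, 11.6 and 10.7 CPM in E12 (log2 1.69, adjusted p = 0.0818). None of these 4 overlapped between the groups. Lower in VF with adjusted p values between 0.102 and 0.163 were the urea transporter gene Slc14a1 (log2 -0.58), Tab1 (-0.81), Klk8 (-0.78) and Bora (-0.59). These values are those of edgeR, and DESeq2 called each gene of this paragraph in the same direction.

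Whether the differences were particular to MkP was tested against the same 2 lines in LTHSC, in one fit that took 12 libraries as independent. The E12 libraries of the 2 populations also differed in sex-linked RNA, with Xist at 869 to 2061 CPM in MkP and at most 9.59 CPM in LTHSC. Population and sex-linked RNA thus cannot be told apart in this test. The difference of differences passed for 2 of 14292 genes (0.014%), Prom1 and Lrg1, with 898 genes at an unadjusted p under 0.05. For Prom1 the VF minus E12 difference was 9.34 log2 units larger in MkP than in LTHSC (SE 1.25, adjusted p = 0.0467). In LTHSC Prom1 was at 1.26, 0.714 and 1.02 CPM in VF and at 1.69, 3.55 and 3.88 CPM in E12 on the scale of all libraries, so it lay higher in E12 there. Lrg1, a secreted glycoprotein gene that was no call in MkP alone (2.49, 2.35 and 2.31 against 1.5, 0.719 and 0.455 CPM), differed by 4.66 (SE 0.62, adjusted p = 0.0467). Both calls were lost when any 1 of 9 of the 12 libraries was left out, and that of Prom1 also without MkP E12 2 (adjusted p = 0.103). Leaving out LTHSC E12 2 gave 157 calls and leaving out LTHSC E12 4 gave 5.

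The other 11 genes did not pass this test, which does not show that the 2 populations are alike. Echdc2 was the 1 gene called between VF and E12 in LTHSC, of 13811 tested (0.00724%), with a log2 fold change of -6.29 (SE 0.34, adjusted p = 0.00123) and a difference of differences of -0.92 (SE 0.51, adjusted p = 0.706). Socs2 was 2.92 log2 units higher in VF LTHSC (SE 0.45, adjusted p = 0.334), with 227, 192 and 204 CPM in VF and 40.7, 11.3 and 30.5 CPM in E12 on the scale of all libraries, and a difference of differences of -0.66 (SE 0.54, adjusted p = 0.727). Esr1 (-0.89), Tfpi (-0.86) and Tfrc (-0.61) lay lower in VF LTHSC without passing (adjusted p = 0.622 each). Ms4a3, Igsf6, Ly6c1 and Rgcc had negative values in LTHSC, between -5.86 and -0.98, none called. In LTHSC E12 4 Ms4a3 was at 615 CPM against 9.24 and 3.36 in E12 2 and 11, and Mpo at 14812 CPM against 150 and 124. Whether the negative values of these genes rest on LTHSC E12 4 was not tested.

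**Figure D5:**
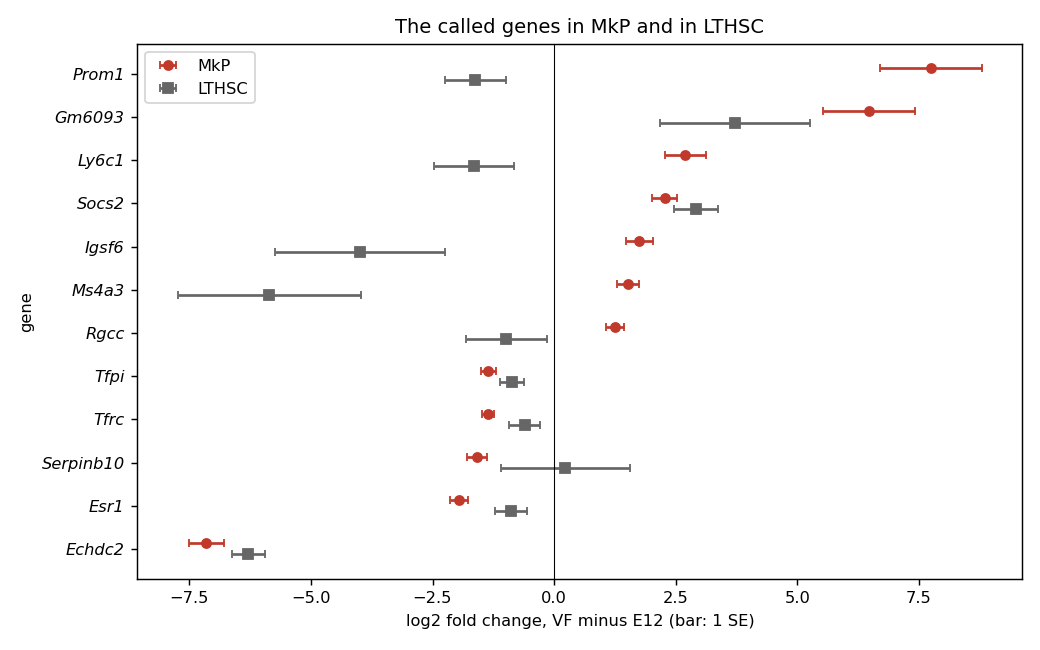
Log2 fold change (VF minus E12) with 1 SE of the 12 called genes in MkP (red circles) and in LTHSC (grey squares). Echdc2 and Socs2 lie on the same side at similar size in both, while Prom1 lies at 7.76 in MkP and -1.62 in LTHSC.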

How the data were processed

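The authors deposited a table of raw read counts per Entrez gene, with no normalization, for 24 libraries; the 6 MkP columns of the VF and E12 lines were used. The submitters' processing notes name STAR 2.7.0c, Subread 1.6.4, featureCounts and the build mm10; which annotation and strand mode were used, and what was done with reads of several matches, is not given in the sources used here. A deposited column of gene length was used as a length only. The 16 rows that name no gene held up to 0.0113% of a library and were left out. Smart-seq2 does not tag molecules, so 1 molecule can give several counts. Coordinates are those of RefSeq for GRCm38.p6, matched by ID for 24374 of 24454 genes. No library was a copy of another: every pair differed by more than sampling noise in a chi-square test (at least 23.15 per degree of freedom).

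Genes were filtered with filterByExpr, scaled by TMM and tested with edgeR 4.0.16 in R 4.3.3 (quasi-likelihood F test with robust fitting, Benjamini-Hochberg adjusted p under 0.05) on the 6 libraries alone. The SE is the log2 fold change divided by the square root of F. On simulated data of this comparison (13097 genes), 67, 67 and 66 genes were changed 2-, 4- and 8-fold, and 71.6%, 91% and 98.5% of them were recovered. Of 12897 unchanged genes 17 were called. Read against the recovered genes, these 17 were a larger share of all calls than the threshold of 0.05 sets. The simulation held no library set apart and no sex-linked difference, so recovery in the real libraries may be lower. The 38 gene lists were described and not tested, and no gene of the list of the mitochondrial genome was in the table. The members and lists were chosen with earlier results of these data known. Named genes are a fixed panel of blood genes, called genes without overlap and of at least 10 CPM, excluding predicted, pseudo- and sex-linked genes, called list members, the 10 smallest p values per direction, and the 2 most abundant members of lists without a call; the text gives the main ones, and 1 gene of the panel is not reported here. Alternatives were RLE or no scaling, DESeq2 1.42.0, voom of limma 3.58.1, other filters, more libraries in the fit, each library left out, and the 2 added after seeing the data. Jak2 was also compared by exact permutation of log2 CPM (prior count 2).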

Additional observations from a re-analysis of the deposited data

Results flagged for a closer look

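Prom1 differed between the populations. Its VF minus E12 difference was 9.34 log2 units larger in MkP than in LTHSC by the test of that difference (SE 1.25, adjusted p = 0.0467, edgeR), with VF higher in MkP (89, 144 and 39 reads against 0, 1 and 0) and lower in LTHSC (log2 -1.62, SE 0.63, adjusted p = 0.622). Over the 16 alternatives the adjusted p ranged from 7.12e-07 with DESeq2 to 0.53 with a replicate block. Without LTHSC E12 4, which held Mpo at 14812 CPM, the adjusted p of Prom1 was 0.036, and without LTHSC E12 2 it was 0.0209. Leaving out any other single library ended the Prom1 call, with an adjusted p of up to 0.322 (without LTHSC VF 3). Lrg1 differed in the same way, with a difference of 4.66 (SE 0.62, adjusted p = 0.0467), and over the same alternatives its adjusted p ranged from 1.2e-10 with DESeq2 to 0.53 with a replicate block. For both genes population and sex-linked RNA cannot be told apart, because the E12 libraries of MkP and LTHSC also differed in Xist.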

How the results depend on the processing

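The count of 12 called genes became 104 with DESeq2 (75 higher and 29 lower), 21 with no filter, 22 with at least 1 CPM in all 3 libraries of a group, 0 in edgeR with all 9 MkP libraries (167 at an unadjusted p under 0.05), 2 with all 24, 3 with Xist as a covariate and 38 without VF 2 and E12 2. Leaving out single libraries gave 4 to 41. Of the 12 genes, 6 were kept by voom, 0 and 2 with 9 and 24 libraries, 1 with Xist and 4 to 12 without single libraries. List members called (4) became 19 with DESeq2, 0 and 1 with 9 and 24 libraries, 17 without VF 2 and E12 2, and 2 to 17 without single libraries. The 2 differences of differences became 58 with DESeq2, 0 with all 24 libraries (555 unadjusted), and 0 to 157 without single libraries (600 to 2802 unadjusted). The cause of these shifts was not tested. RLE scaling gave 11 calls (6 higher), scaling by library size 10 (5 higher) and voom 9 (4 higher), against 7 higher of 12, and the median of all genes moved by less than 0.1. The Jak2 difference (0.44) stayed between 0.33 and 0.65, the highest with Xist as a covariate.

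No paired analysis was possible for VF against E12 in MkP because the 2 groups share 1 replicate number. For the difference of differences a replicate block over 10 libraries called 0 genes, with 1076 at an unadjusted p under 0.05. Deviations of same-numbered MkP and LTHSC libraries correlated at 0.12, 0.07 and 0.095 in VF and at -0.048 and -0.067 in E12. Xist was at 533, 309 and 598 CPM in VF 2 of LTHSC, preMegE and MkP. In VF 1 and VF 3 it was at most 4.71 CPM in every population. The VF numbers may thus mark a shared source, which was not tested, and the main fit took all libraries as independent. Prom1 and Gm6093 rest on few reads; no fit at reduced depth was made.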

Other observations

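A few genes had reads in every MkP library of one line and none in the other. They were chosen after their values were seen, by at least 10 reads in each library of one group and 0 in the other. None passed the adjusted threshold in the main edgeR fit. DESeq2 called each of them, with adjusted p from 1.71e-05 for Sva to 0.0318 for Olfml2b. Sva, a gene best known from seminal vesicles, had 40, 50 and 48 reads in VF MkP and 0 in E12, which makes it at least 50.7-fold higher in VF against a floor of 3 reads over the E12 group (adjusted p = 0.0581). Over the whole series Sva had reads in 9 of 9 VF libraries, at least 29 in each, in 0 of 6 E12 and in 0 of 9 KI libraries. Zfp965, a zinc finger gene, went the other way, with 24, 27 and 38 reads in E12 MkP and 0 in VF (at least 26.9-fold higher in E12, adjusted p = 0.117). It had reads in 6 of 6 E12 libraries, in 1 of 9 VF libraries (3 reads) and in 0 of 9 KI libraries. Cd300e, a myeloid receptor gene, had 12, 63 and 37 reads in E12 MkP and 0 in VF MkP. Prokr2 (28, 13 and 18) and Olfml2b (26, 10 and 19) had reads in VF MkP and 0 in E12 MkP. Over the whole series these genes did not follow the line. Cd300e had reads in 5 of 6 E12, 1 of 9 VF and 2 of 9 KI libraries. Prokr2 had reads in 5 of 9 VF, 0 of 6 E12 and 2 of 9 KI libraries. Olfml2b had reads in 8 of 9 VF, 1 of 6 E12 and 3 of 9 KI libraries, with up to 76 reads in a library outside VF.

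In MkP the 3 libraries labelled KI differed widely among themselves in several of the genes that separate VF from E12, and whether KI 5 and KI 6 carry the genotype on their labels was not tested. KI 4 had Xist at 2719 CPM, Echdc2 at 179 CPM and Esr1 at 43.1 CPM. KI 5 and KI 6 had Xist at 28.4 and 6.07 CPM, Echdc2 at 5.70 and 1.74 CPM and Esr1 at 9.32 and 0.578 CPM. Ms4a3 was at 52.6 CPM in KI 4 and at 433 and 474 CPM in KI 5 and KI 6. Socs2 (37.7, 34.0 and 53.6 CPM in KI 4, 5 and 6) and Tfpi (46.7, 42.5 and 33.8) did not divide in this way. In the E12 line sex-linked reads differed between populations of the same replicate number. MkP E12 4 had Ddx3y at 0.0964 CPM and LTHSC E12 4 at 8.22 CPM.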
